A study of Schizocosa ocreata with 10 samples.

Results

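Brains of 3 immature wolf spiders (Schizocosa ocreata) that carried much RNA of the nuclear receptor Hr4 were compared with the brains of 5 mature spiders. These 8 libraries belong to a series of 10, each made from the brain of 1 spider. The rule was a level of at least 100 CPM (counts of a gene scaled to a common library total) of Gene001811, the gene of the assembled transcriptome with the closest match to Drosophila Hr4, in a library labelled immature. Immature female 2, at 158.8 CPM, immature male 1, at 509.9 CPM, and immature male 3, at 661.5 CPM, passed it. Immature female 2 was the member nearest the threshold, and the other immature libraries lay far below it, at 1.43 CPM in immature female 3 and 1.35 CPM in immature male 2. The 5 mature libraries (females 1, 2 and 3 and males 2 and 3) lay between 1.70 and 5.52 CPM.

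Immature spiders were wild-caught subadults whose time to the next molt was not determined, and they were dissected a few days after collection. Mature spiders had molted to the adult stage 24 h before dissection, so age and molt stage went together. The high-Hr4 group held 1 female and 2 males and the mature group 3 females and 2 males. The brain was cut out of the surrounding muscle, and by the study's description a sample could include oesophagus.

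Arthropods grow by molting, which is driven by pulses of ecdysteroid hormone. The hormone binds the receptor pair EcR and Usp and switches on a cascade of nuclear receptors, among them, in flies, E75, E78, Hr3 and Hr4, and the receptor Ftz-f1 appears in flies after the pulse has declined. Beneath the old cuticle the epidermis then lays down a new cuticle of chitin and cuticle proteins, and enzymes digest the old one.

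The high-Hr4 libraries were chosen by their measured CPM of Gene001811, so their differences from the mature group are given as a description with no test, and Hr4 itself is not a finding. Levels below are CPM with trimmed mean of M-values (TMM) scaling, listed for the high-Hr4 libraries in the order immature female 2, immature male 1 and immature male 3, and for the mature libraries in the order females 1, 2 and 3 and males 2 and 3. A log2 difference is the mean log2 CPM of the 5 mature libraries minus that of the 3 high-Hr4 libraries, with a prior count of 2 added, on which the size of the difference depends for genes near 0 counts. A gene is called separated where all 3 libraries of one group lay above or below all 5 of the other and the log2 difference was at least 1 in size. The gap is the log2 CPM of the lowest library of the higher group minus that of the highest library of the lower group. Gene names are those of the best match in Drosophila or in the Swiss-Prot collection, and levels were not compared between genes.

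The libraries held from 3481348 to 11789754 counts, and between 25061 and 25666 genes were detected in each. The smallest library was mature female 2. Neuron markers were all detected in every library (35 of 35), and so were muscle markers (36 of 36). Muscle markers took from 7.002% to 10.6% of the counts in the high-Hr4 libraries and from 10.5% to 15.9% in the mature libraries, and neuron markers took from 0.303% to 0.425% and from 0.281% to 0.693%. Their part in the differences below was not tested.

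Of 24930 genes tested, 827 (3.32%) were separated with the higher level in mature brains and 1112 (4.46%) with the higher level in high-Hr4 brains. Without the limit on size, 1754 (7.04%) and 2849 (11.4%) did not overlap. The log2 difference was at least 2 in size for 273 and 286 of the separated genes. With fewer libraries the rule of no overlap is easier to meet, and counts over all genes rose whichever library was left out. Without immature female 2, male 1 or male 3 they were 1217 and 1478, 1512 and 1680, or 1045 and 1280. Without mature female 1, 2 or 3 they were 938 and 1215, 914 and 1250, or 1376 and 1185. Without mature male 2 or 3 they were 912 and 1263, or 1007 and 1167. Among males alone they were 1948 and 1846. Counts of gene lists with fewer libraries are to be read beside these. The median log2 difference over all genes was 0.02. In bulk tissue, fewer cells of a type and less RNA per cell cannot be told apart.

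The other immature libraries, female 3 and male 2, took no part in these calls. For 361 of the 827 genes higher in mature brains (43.7%) both of them lay at or past the mature libraries' edge, for 68 both lay at or past the edge of the high-Hr4 libraries, for 78 both fell between the groups, and for 320 they differed in position. Of the 1112 genes higher in high-Hr4 brains, 512 (46%) had both on the mature side, 37 on the high-Hr4 side, 96 between and 467 in mixed positions.

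The design's own comparison sets all 5 mature libraries against all 5 immature libraries, by label and over both sexes, and so includes the libraries that the Hr4 rule divided. With edgeR's quasi-likelihood test and Benjamini-Hochberg adjustment at 0.05, 0 of 24930 genes (0%) passed in either direction. The unadjusted p was under 0.05 for 3770 genes. Without immature male 2, one of the low-Hr4 libraries, 292 genes passed, and without mature male 3, immature female 3 and mature female 2 there were 32, 12 and 2. Leaving out immature female 2 or immature male 1 gave 1 gene each, and leaving out any other library gave 0. The likelihood ratio test of edgeR called 645 genes, 270 (1.08%) higher and 375 (1.50%) lower in mature brains, and DESeq2 called 742.

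Genes of the ecdysone response include the receptor that chose the libraries. Of 27 genes tested, 9 were separated and higher in high-Hr4 brains and 2 were separated and higher in mature brains, against 4.46% and 3.32% of all genes, and the median log2 difference was -0.25. The list holds Gene001811 and Gene001813, an Hr4 match on the same contig, both among the 9, so its count follows in part from the choice of libraries. With 1 gene per contig the separated genes were 7 and 2, with Gene001811 still in the list. The likelihood ratio test of the labelled groups called 6 of the 27 lower in mature brains and 0 higher. Without immature female 2 the separated genes were 10 and 4.

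Hr4 is an orphan receptor that in flies ties the end of larval growth to the hormone pulse. Gene001811 was at 143.4, 505.0 and 668.2 CPM in the high-Hr4 libraries and at 1.93, 4.00, 2.17, 5.13 and 1.97 CPM in the mature libraries. Gene001472, a further gene with Hr4 as best match, on another contig, was at 137.2, 154.5 and 285.6 CPM against 6.54, 15.7, 6.68, 4.48 and 4.13 CPM. Both genes had no overlap between groups, with log2 differences of -6.91 and -4.73, and the low immature libraries lay at 5.14 and 15.5 CPM for Gene001472, beside the mature ones.

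Hr3, which in flies represses early genes and turns on ftz-f1, was higher in the same libraries. Gene022715 (Hr3) stood at 18.2, 142.8 and 138.1 CPM in the high-Hr4 libraries and at 2.79, 2.77, 2.80, 3.08 and 2.46 CPM in the mature libraries, with 1.42 and 1.84 CPM in immature female 3 and immature male 2. The groups were apart by a log2 difference of -4.57, and immature female 2 was the lowest of its group. Gene001859, on a contig with other Hr3 matches, was also separated (log2 difference -1.83). Gene001860 (log2 difference -1.42) and Gene001858 (-1.28) overlapped, the latter because immature female 2, at 6.95 CPM, lay below the lowest mature library, at 8.20 CPM.

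The early genes of the cascade differed less. E75, a haem-binding nuclear receptor that in flies represses Hr3 function, was read at Gene005488, with 478.9, 185.7 and 221.3 CPM in high-Hr4 brains and 42.9, 68.9, 56.8, 46.7 and 64.2 CPM in mature brains. The log2 difference was -2.29 with no overlap, and the other immature libraries lay between the groups at 98.4 and 86.5 CPM. E78, at Gene009104, was at 475.1, 192.0 and 365.9 CPM against 94.8, 94.4, 113.4, 96.4 and 98.2 CPM, a log2 difference of -1.70. The other 4 E78 matches all overlapped between groups, with log2 differences of -0.25 (Gene007139), -0.08 (Gene008954), -0.31 (Gene008955) and 0.09 (Gene008956), the last 3 on a single contig. For Gene009104 immature female 2 was the highest library, as it was for E75, whereas for Hr4 and Hr3 the highest levels were in the high-Hr4 males.

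A gene named for the ETS factor E74 (Gene005750) and a match to the receptor partner Usp (Gene007749) were separated in the same direction. Their log2 differences were -1.81 and -1.22. Gene005750 has a coding sequence of 300 bases and neither a Swiss-Prot match nor a domain, so its identity rests on the fly name alone. The other E74 match, Gene016899, overlapped, with a log2 difference of 0.59. For Usp the lowest high-Hr4 library, immature male 3 at 9.70 CPM, lay close above the highest mature library at 7.78 CPM. A further Usp match, Gene018956, had a log2 difference of 0.61 and was not separated. The gene named for EcR, the hormone's own receptor, was not separated either. Gene017234 stood at 63.6, 25.9 and 30.5 CPM in high-Hr4 brains and at 51.5, 54.1, 57.8, 50.4 and 50.6 CPM in mature brains. Its coding sequence has 432 bases, with no Swiss-Prot match and no domain, so whether it stands for EcR is not settled.

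Ftz-f1 was the receptor with the opposite order. Gene007559 (ftz-f1) was at 2.19, 13.04 and 4.21 CPM in high-Hr4 brains and at 50.3, 59.7, 37.0, 48.1 and 31.9 CPM in mature brains. The mean was 6.48 ± 5.77 CPM (SD, n = 3) against 45.4 ± 11.03 CPM (SD, n = 5), a log2 difference of 3.09 with no overlap. The low-Hr4 immature libraries, at 28.8 and 29.7 CPM, fell between the groups and near the mature ones. Gene024685, the other ftz-f1 match, was separated in the same direction at lower counts (log2 difference 2.22).

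Other members of the list showed no separation. E93 (Gene006242), which directs the adult programme in insects, had a mean of 22.8 ± 5.13 CPM (SD, n = 3) in high-Hr4 brains and 22.3 ± 1.77 CPM (SD, n = 5) in mature brains. Hr39 (Gene009352), Hr38 (Gene001184) and svp (Gene001256) had log2 differences of 0.08, 0.50 and -0.28, each with overlapping groups. The 3 matches to Hr96, Gene006770, Gene008208 and Gene024602, also overlapped, with log2 differences of 1.65, 0.41 and 0.48.

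**Figure D1:**
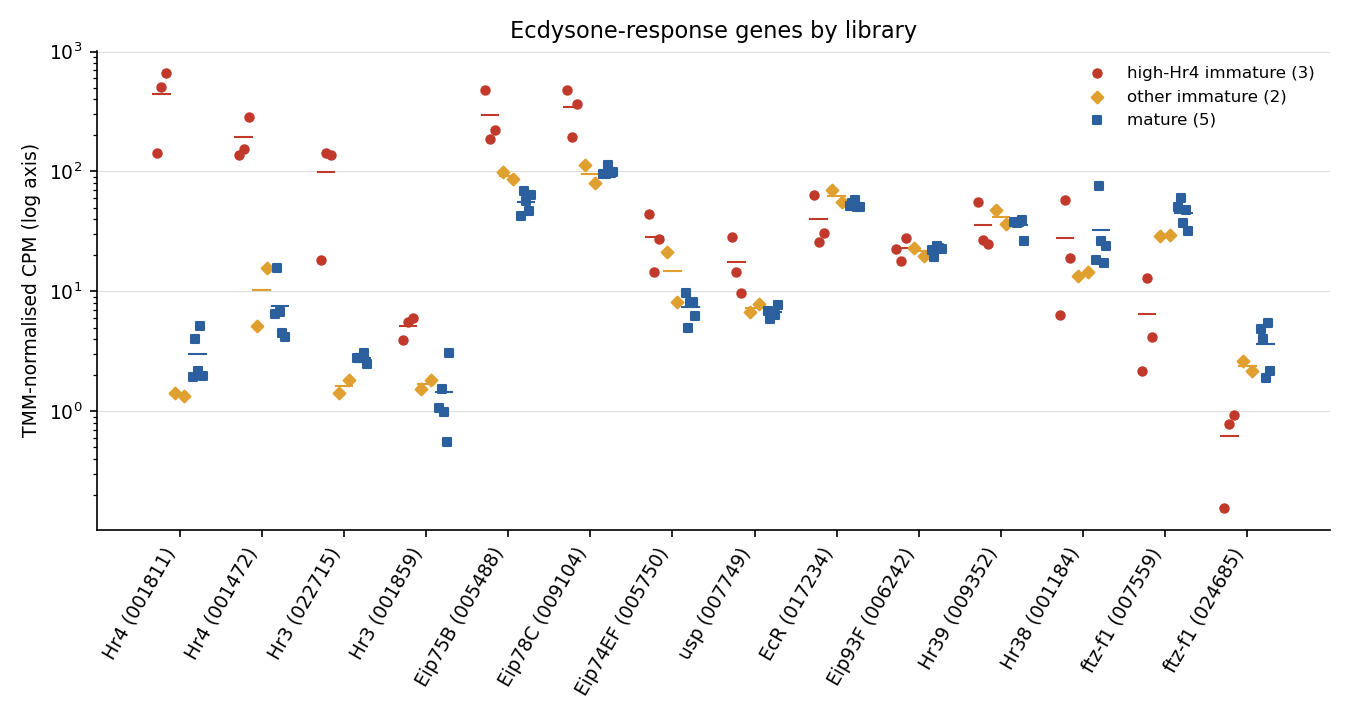
Level of ecdysone response genes in each library (TMM CPM, log axis), with a point per library for the high-Hr4 immature, the other immature and the mature brains and a line at each group mean. Hr4 and Hr3 (Gene022715) are high in the 3 high-Hr4 libraries alone, E75 and E78 differ less, and ftz-f1 has the opposite order. Gene017234, named for EcR, overlaps.

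Among genes outside the ecdysone list, chosen after their values were seen, E23 had the same order as Hr3. E23 is an ABC transporter that in flies lowers the response to ecdysone. Its match, Gene001442, was at 18.0, 65.4 and 115.3 CPM in high-Hr4 brains and at 1.82, 2.15, 2.35, 2.15 and 0.787 CPM in mature brains, with 1.53 and 2.00 CPM in the low-Hr4 immature libraries. No mature library came near the lowest high-Hr4 one, and the log2 difference was -4.71.

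Enzymes that make and break down the hormones showed another picture. Of 22 genes tested, 4 (18.2%, against 3.32% of all genes) were separated and higher in mature brains and 0 (against 4.46%) in high-Hr4 brains. The 4 are all cytochrome P450 genes with Cyp18a1, an ecdysteroid-inactivating enzyme of insects, as best match. They are counted again among the 23 of 73 P450 genes (31.5%) below, so the result is not particular to hormone enzymes. For all 4 both low-Hr4 immature libraries lay on the mature side. The match is loose for these genes, with identities of 28.4% to 40.6%, so the enzyme's role cannot be carried over. Gene000620 (Cyp18a1) was at 96.9, 71.1 and 64.7 CPM in high-Hr4 brains and at 256.2, 223.2, 179.6, 178.7 and 248.4 CPM in mature brains, a log2 difference of 1.49.

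Gene005999, also with Cyp18a1 as best match, went the other way in the high-Hr4 males only, with 0.109 and 0.501 CPM in immature female 3 and immature male 2. It stood at 0.312, 32.4 and 20.6 CPM in high-Hr4 brains and was at most 0.466 CPM in every mature library, so that immature female 2 overlapped the mature group and the gene was not separated. Gene018084 has as named Drosophila match the 20-hydroxylase shade, which in flies makes the active hormone. Its Swiss-Prot match is the probable fly P450 49a1, and its coding sequence has only 303 bases, so shade's role cannot be carried over. It was at 13.6, 6.32 and 3.86 CPM against 0.214, 5.23, 0, 2.15 and 0.197 CPM. Mature female 2 overlapped the high-Hr4 group there.

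Molting peptides and their receptors showed no separation. Of 16 genes tested 0 were separated in either direction, against 3.32% and 4.46% of all genes, and the median log2 difference was 0.11. Bursicon (Gene010687), the hormone that hardens the cuticle after a molt in insects, was at 21.9, 13.4 and 40.7 CPM in high-Hr4 brains and ranged from 6.002 to 64.3 CPM in mature brains. Its partner Pburs (Gene010228), the bursicon receptor gene rk (Gene001626) and the receptor of ecdysis-triggering hormone (Gene017152) had log2 differences of 0.29, -0.50 and 0.01. The groups overlapped for each of them.

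Cuticle protein genes had the highest median difference among the lists examined. Of 86 tested, 32 (37.2%, against 3.32% of all genes) were separated and higher in mature brains. Another 4 (4.65%, near the 4.46% of all genes) were higher in high-Hr4 brains, and the median log2 difference was 3.17. Without immature male 1 the count was 50 and 4, where all genes had 1512 and 1680. Without immature female 2 it was 35 and 20, where all genes had 1217 and 1478. Among males alone it was 38 and 24, where all genes had 1948 and 1846. Cuticle genes took 0.0922%, 0.828% and 0.0528% of counts in the high-Hr4 libraries and from 0.166% to 0.879% in the mature ones, so immature male 1 had a share within the mature range. The epidermis marker list consists of these genes and 1 more, so the amount of epidermis in a sample and the level of these genes cannot be told apart.

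The families within the list went different ways, a division chosen after the values were seen. Over all genes, 3.32% were separated and higher in mature brains and 4.46% in high-Hr4 brains. Genes with an adult-specific rigid cuticular protein of the orb weaver Araneus diadematus as best match numbered 27, of which 20 were separated and higher in mature brains and 0 in high-Hr4 brains, with a median log2 difference of 5.41. Of 21 genes matching cuticle protein 16.8 of the tick Ixodes ricinus, 0 were higher in mature brains and 4 in high-Hr4 brains, with a median of -2.81. The 17 genes matching tick cuticle protein 10.9 had 5 higher in mature brains and 0 higher in high-Hr4 brains, and the 15 matching horseshoe crab cuticle protein 14 had 4 and 0.

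The adult-specific genes named here were at or below 2.77 CPM in all 3 high-Hr4 libraries. Gene017521, a match to an adult-specific rigid cuticular protein, was at 0.312, 0 and 0.351 CPM in high-Hr4 brains and at 100.7, 258.6, 40.2, 187.3 and 32.5 CPM in mature brains. The low-Hr4 immature libraries were near 0 too, at 0.437 and 0.334 CPM, and the gene had the smallest adjusted p of the labelled comparison, 0.0695 with edgeR's quasi-likelihood test, together with Gene007772. Gene007824 showed the same pattern in all 5 immature libraries, none above 0.437 CPM, against 8.49 to 129.4 CPM in mature brains.

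Other members of that family were already present in the low-Hr4 immature libraries. Gene003668 was at 1.56, 2.77 and 1.05 CPM in high-Hr4 brains, at 49.5 and 76.5 CPM in the other immature brains and at 190.8, 665.9, 88.0, 962.8 and 120.7 CPM in mature brains. Gene018229, chosen after its values were seen, was highest in the other immature libraries, at 472.7 and 116.6 CPM, with 0.390, 0.790 and 0.701 CPM in high-Hr4 brains and from 13.9 to 109.1 CPM in mature brains. Over the 32 cuticle genes higher in mature brains, both low-Hr4 immature libraries lay on the mature side for 8, between the groups for 11, on the high-Hr4 side for 2 and in mixed positions for 11.

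The high-Hr4 libraries differed from each other in these genes. Tested cuticle genes at 10 CPM or more numbered 8 in immature female 2, 40 in immature male 1 and 12 in immature male 3, against 31 to 54 in the mature libraries, and 24 of the 86 genes had their highest level in immature male 1. Gene002157 (cuticle protein 16.8 match, chosen after its values were seen) stood at 0.624, 363.6 and 17.4 CPM in high-Hr4 brains and at no more than 0.295 CPM in any mature brain. Gene023345, of the same family and chosen in the same way, reached 866.9 CPM in immature male 1 and was not separated. Gene016420, a cuticle protein 14 match chosen in the same way, was at 642.9 CPM in immature female 2 and at 0.395 and 0 CPM in the high-Hr4 males.

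Genes of chitin synthesis and breakdown showed no separation, with 0 of 29 in either direction, against 3.32% and 4.46% of all genes. The median log2 difference was -0.62. Leaving out immature female 2, immature male 1 or mature female 2 gave 4 genes higher in high-Hr4 brains, and males alone gave 10. The median was -0.17 without immature male 1, -0.18 without immature male 3, -0.32 without mature female 3 and -0.41 without mature male 3. Chitin deacetylase serpentine (Gene005700) was at 242.9, 429.8 and 328.5 CPM in high-Hr4 brains and ranged from 92.2 to 489.5 CPM in mature brains, wider than the high-Hr4 range. A chitin-binding gene, Gasp (Gene002159), which in flies belongs to the matrix of the airways and cuticle, was separated. Its levels were 126.4, 108.8 and 214.3 CPM in high-Hr4 brains, 7.40, 31.97, 1.63, 12.2 and 3.05 CPM in mature brains, and 1.64 and 0.668 CPM in the low-Hr4 immature brains. Gene010795 (CG12009), with the same chitin-binding domain, was separated in the opposite direction. It was at 0.390, 4.54 and 0.35 CPM against 21.35 to 41.5 CPM, a log2 difference of 4.72. Gasp and Gene010795 were named from the list of gut and digestive gland markers, described below.

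Both genes described next were chosen after their values were seen. Dumpy (dpy) is a very large matrix protein that in flies anchors the epidermis to the cuticle. Its match, Gene005288, was at 41.3, 1564 and 2146 CPM in high-Hr4 brains and at 2.36, 3.69, 2.80, 6.99 and 2.76 CPM in mature brains. The low-Hr4 immature libraries had 4.16 and 2.00 CPM, within or just below the mature range, and the log2 difference was -7.14. Gene004581, with Skeletor as best match, was at 29.3, 175.0 and 223.6 CPM against 0.903 to 4.50 CPM. For both genes immature female 2 was the lowest of the high-Hr4 libraries, as it was for Hr4 and Hr3.

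By the rule for named genes, the widest gaps among genes higher in high-Hr4 brains belonged first to serine proteases. Gene005449, a trypsin-type protease with CG9737 as fly match, was at 49.0, 66.4 and 98.1 CPM in high-Hr4 brains and at 0.214, 0.615, 0.181, 0.187 and 0.0984 CPM in mature brains, a gap of 5.86 on the log2 scale. Gene001972, with CG6865 as fly match, was at 190.3, 35.6 and 87.0 CPM against no more than 0.536 CPM, a gap of 5.54. Both genes were low in the other immature libraries also, at 0.219 and 0.167 CPM for the former and at 1.53 and 0.167 CPM for the latter.

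Both proteases are also in the list of gut and digestive gland markers. Of its 128 tested genes 11 (8.59%, against 4.46% of all genes) were separated and higher in high-Hr4 brains and 2 (1.56%, against 3.32%) in mature brains, with a median log2 difference of -0.07. The list took 0.870%, 0.467% and 0.3003% of counts in the high-Hr4 libraries and from 0.262% to 0.728% in the mature libraries, so the groups overlapped. The part of gut tissue in these levels was not tested. Without immature female 2, the library with the highest share, the count was 25 and 18, where all genes had 1478 and 1217. Without mature female 2 it was 17 and 3, without mature male 3 it was 14 and 4, and without immature male 1 or immature male 3 it was 16 and 5 or 11 and 6. Leaving out immature male 1 turned the median to 0.11, and leaving out mature male 3 turned it to 0.03.

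Over the trypsin-type proteases as a list, 9 of 61 (14.8%, against 4.46% of all genes) were separated and higher in high-Hr4 brains and 1 (1.64%, against 3.32%) was higher in mature brains, with a median log2 difference of -0.26. Without immature female 2 the count was 17 and 12, where all genes had 1478 and 1217. Masquerade (Gene022257), a protease-like adhesion protein of flies, was at 4.61, 0.790 and 2.80 CPM in high-Hr4 brains and no higher than 0.429 CPM in mature brains. Serpins, which inhibit such proteases, had 2 of 23 (8.70%) in each direction, against 3.32% and 4.46% of all genes, among them Gene022340 (Spn38F), at 84.3, 1.19 and 5.49 CPM against 0.307 to 1.07 CPM. Without immature male 3 the serpins higher in high-Hr4 brains were 5, and without mature male 3 they were 4.

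The other genes with wide gaps had varied roles. Gene005479 matched scf, an EF-hand calcium-binding protein of the secretory pathway, and stood at 121.9, 236.2 and 1031 CPM in high-Hr4 brains and at 2.17 to 7.18 CPM in mature brains. Gene002660 matched Npc2a, which carries sterols out of lysosomes, and stood at 31.6, 23.9 and 19.7 CPM against no more than 0.857 CPM. Its mean was 25.1 ± 6.02 CPM (SD, n = 3) against 0.417 ± 0.315 CPM (SD, n = 5). Gene004439, a match to Ptr, a protein of the Patched family, was at 6.63, 11.1 and 21.2 CPM against 0.181 to 0.394 CPM.

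Immature female 2 had the highest level of several of these genes. Gene019893 matched singles bar (sing), which in flies acts in the fusion of myoblasts, and was at 69.5, 15.8 and 18.7 CPM against no more than 0.492 CPM in mature brains. Gene019807 is named for stall (stl), an ADAMTS-like metalloprotease, but has only 339 coding bases and neither a Swiss-Prot match nor a domain. It was at 79.5, 6.32 and 15.4 CPM against no more than 0.280 CPM, although immature female 3 reached 5.47 CPM. Another stl match, Gene007507, chosen after its values were seen, had the opposite order, at 12.3, 29.4 and 18.2 CPM against 31.9 to 121.3 CPM (log2 difference 1.84). The metalloprotease domain Reprolysin, a set also chosen after its values were seen, had 12 tested genes. Of these, 5 (41.7%, against 3.32% of all genes) were separated and higher in mature brains and 0 (against 4.46%) in high-Hr4 brains. Gene019544 (CG7231) and Gene022514 (CG4702) were higher in high-Hr4 brains by log2 differences of -5.22 and -5.59 and peaked in immature male 3.

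**Figure D2:**
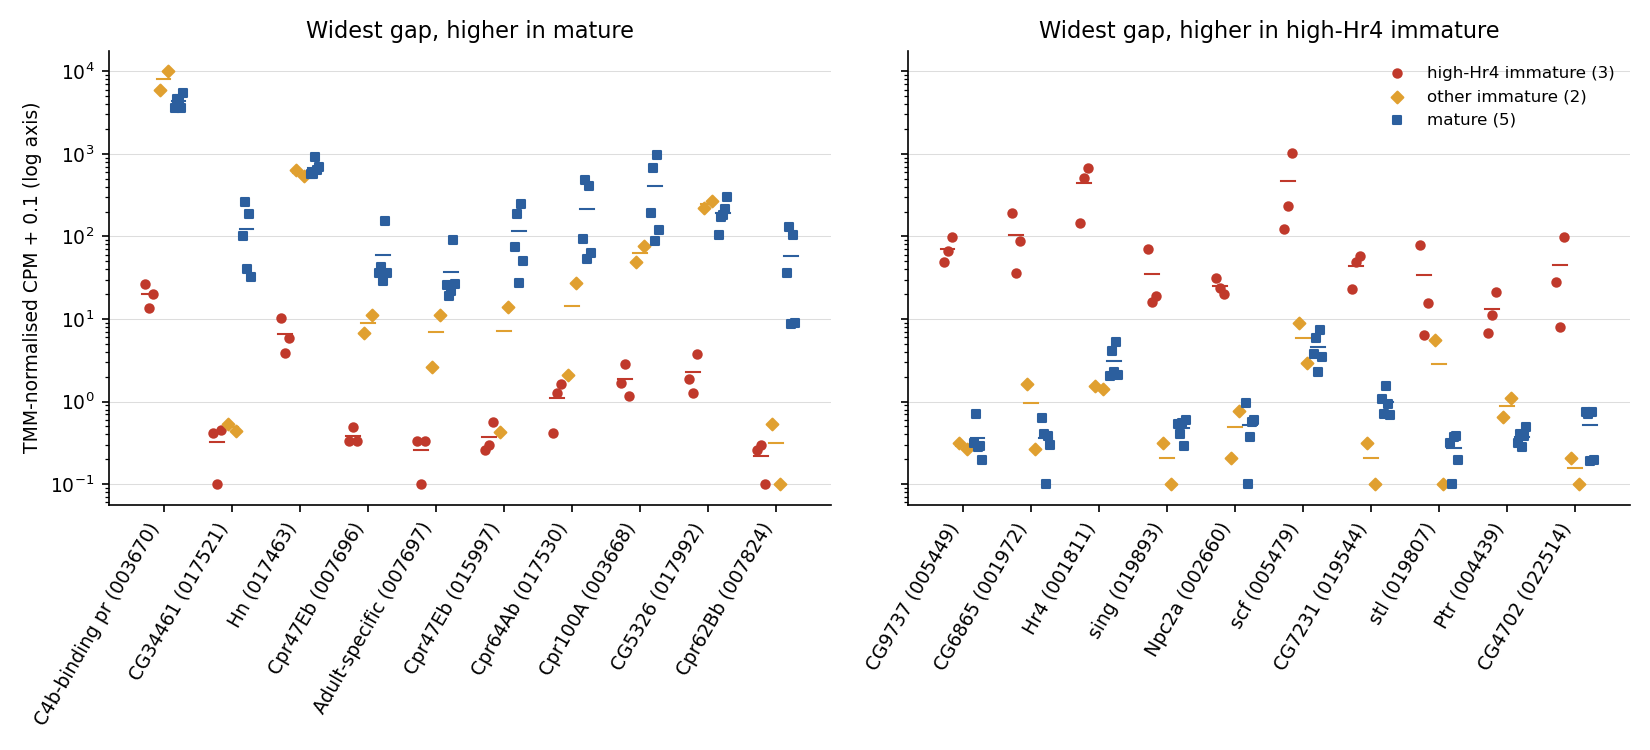
Level in each library of the genes with the widest gap between groups in each direction (TMM CPM with 0.1 added, log axis). Points stand for libraries of the high-Hr4 immature, the other immature and the mature brains and lines for group means; in both other immature libraries Gene003670 lies above every mature library and Gene017463 close to the mature ones, whereas Gene017521 lies at high-Hr4 levels there.

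Beside cuticle genes, the widest gaps among genes higher in mature brains belonged to a sushi-domain gene and metabolic enzymes. Gene003670, whose best match is the rat C4b-binding protein beta chain, a complement regulator in mammals, was at 26.4, 13.6 and 20.2 CPM in high-Hr4 brains and at 3545, 4564, 4657, 3561 and 5412 CPM in mature brains. The gap of 7.06 on the log2 scale was the widest of the genes that the rule named. The gene was higher still in the low-Hr4 immature libraries, at 5942 and 9979 CPM, so low levels were found in the high-Hr4 libraries only, and the labelled comparison had a log2 fold change of 0.47 ± 1.61 (SE). Gene003671 lies on the same contig with the same best match, so the pair may be 1 transcript.

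Henna (Hn) is phenylalanine hydroxylase, which makes tyrosine, the starting point of dopamine and of the compounds that tan insect cuticle. Its match, Gene017463, was at 10.1, 3.75 and 5.84 CPM in high-Hr4 brains and at 564.4, 568.5, 921.7, 630.2 and 699.2 CPM in mature brains. The low-Hr4 immature libraries were at 644.6 and 540.1 CPM, beside the mature ones, and the log2 difference was 6.72. Gene017992 (CG5326), a fatty acid elongase match, was at 1.79, 1.19 and 3.62 CPM against 105.0 to 302.4 CPM in mature brains and 222.1 and 272.0 CPM in the low-Hr4 immature brains.

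Ribosomal protein genes shared 1 direction. All 74 genes of the cytosolic ribosome had a higher mean in high-Hr4 brains, 73 of them without overlap and 65 (87.8%, against 4.46% of all genes) separated, with a median log2 difference of -1.17. They took from 2.31% to 2.58% of counts in high-Hr4 brains and from 0.900% to 1.203% in mature brains, and 1.37% and 1.07% in immature female 3 and immature male 2. RpL4 (Gene001962), of the large subunit, was at 561.6, 602.4 and 596.3 CPM against 214.7, 228.7, 169.0, 249.9 and 153.0 CPM. RpS19a (Gene007165), of the small subunit, was at 162.6, 179.1 and 171.3 CPM against 51.4 to 74.9 CPM. In the 5 mature libraries and both low-Hr4 immature ones, 0 of the 74 genes had its highest level.

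Other machinery of protein turnover had the same order, in sets chosen after their values were seen. All 14 tested genes with a proteasome domain had a higher mean in high-Hr4 brains, with log2 differences from -1.42 to -0.70, and 7 (against 4.46% of all genes) were separated. All 9 genes matching subunits of the T-complex chaperonin, which folds actin and tubulin, were higher in the mean. Of these, 6 (against 4.46% of all genes) were separated. Gene008768 (CCT3) was at 274.0, 278.7 and 322.8 CPM in high-Hr4 brains and at 84.5, 110.4, 119.9, 109.3 and 100.7 CPM in mature brains. The other immature libraries, at 147.1 and 123.3 CPM, lay just above the mature range.

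Of 22 heat shock proteins and chaperones 2 (9.09%, against 4.46% of all genes) were separated and higher in high-Hr4 brains, with a median log2 difference of -0.65. Hsc70-3 (Gene003128), the BiP chaperone of the endoplasmic reticulum, was at 352.9, 133.1 and 204.8 CPM against 50.7, 50.7, 55.5, 111.4 and 64.2 CPM. Hsc70-4 (Gene013104), the cytosolic form, was at 1600, 1734 and 2044 CPM against 724.3 to 1002 CPM. Without immature female 2 the count of separated chaperones was 5 and without mature male 2, the library with the highest mature level of Hsc70-3, it was 4.

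Respiratory chain genes had a higher mean in high-Hr4 brains for all 58 tested, with a median log2 difference of -0.46, and 31 of them did not overlap, against 11.4% of all genes, but 0 were separated. ATP synthase beta (Gene002016) was at 1231, 1511 and 1414 CPM in high-Hr4 brains and at 1172, 781.5, 1172, 811.8 and 919.8 CPM in mature brains. DNA replication and cell division genes had 8 of 66 (12.1%, against 4.46% of all genes) separated and higher in high-Hr4 brains and 0 in mature brains, with a median of -0.61. Geminin (Gene021870), which limits replication to once a cycle, was at 8.90, 6.12 and 5.96 CPM against 1.57 to 3.61 CPM, and the mitotic kinase gene polo (Gene022775) at 2.50, 2.17 and 1.87 CPM against 0 to 0.965 CPM. Without immature male 1, 17 genes of this list were separated and higher in high-Hr4 brains, where all genes numbered 1680.

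**Figure D3:**
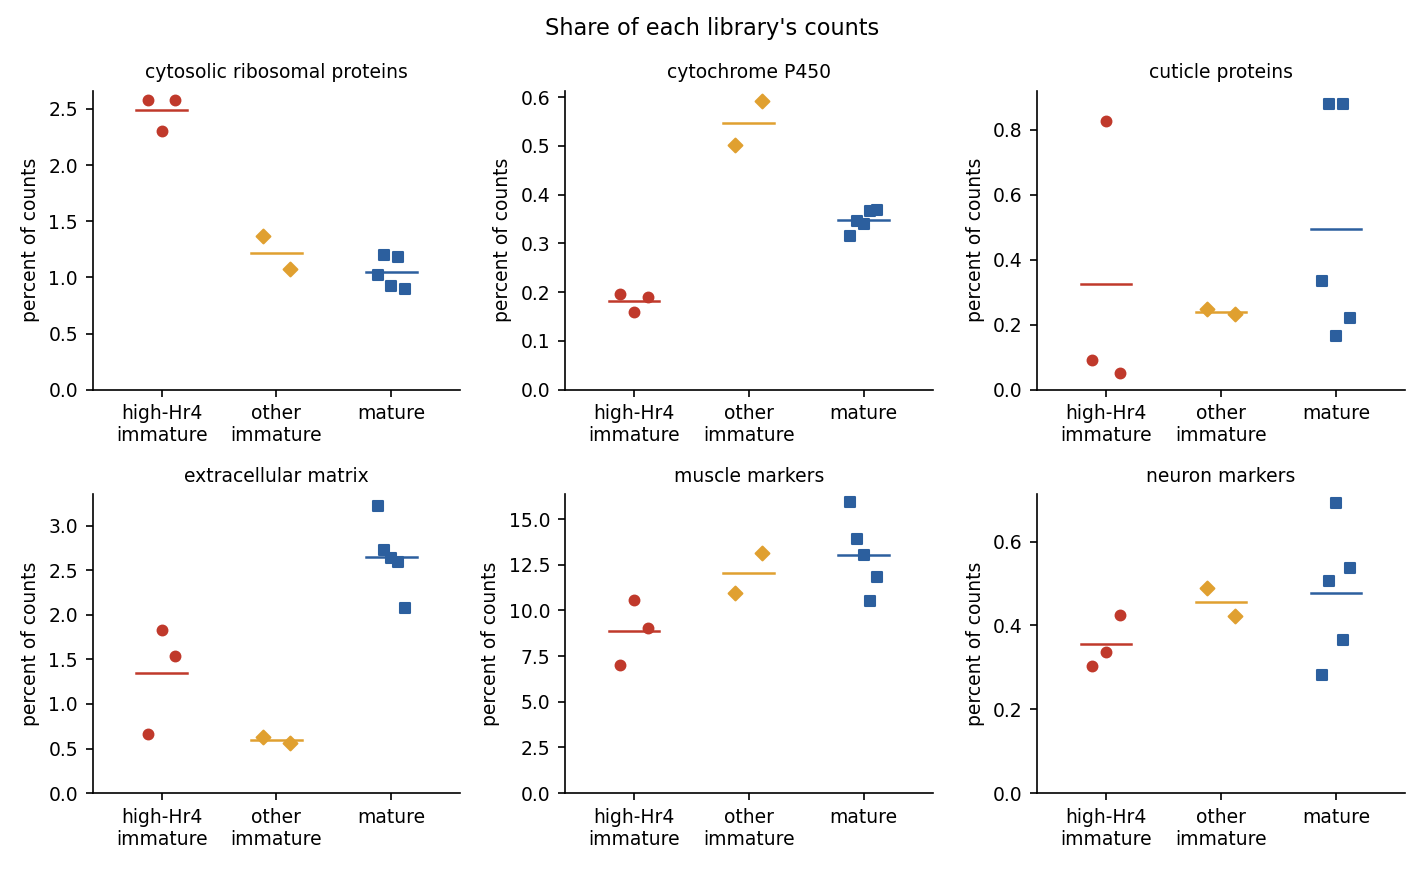
Share of each library's counts taken by selected gene lists (percent), with a point per library and a line at each group mean. Ribosomal proteins and P450 genes keep the high-Hr4 and mature libraries apart in opposite directions, while for cuticle proteins immature male 1, at 0.828%, lies within the mature range.

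Cytochrome P450 genes, whose enzymes oxidise hormones, lipids and foreign compounds, were separated in 1 direction only. Of 73 tested, 23 (31.5%, against 3.32% of all genes) were separated and higher in mature brains and 0 (against 4.46%) in high-Hr4 brains. The 23 include the 4 Cyp18a1 matches of the hormone list. The mean was higher in mature brains for 62 and in high-Hr4 brains for 11, with a median log2 difference of 0.99. The likelihood ratio test of the labelled groups called 0 of the 73 in either direction, and the labelled median log2 fold change was 0.00. The list took 0.196%, 0.160% and 0.190% of counts in high-Hr4 brains, 0.502% and 0.592% in the other immature brains and 0.315% to 0.369% in mature brains. Both low-Hr4 immature libraries were on the mature side for 22 of the 23 separated genes. Leaving out immature female 2 or mature female 2 gave 2 genes higher in high-Hr4 brains.

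The gene with the widest gap in that list was Gene006553, with Cyp301a1, a P450 that in flies acts in adult cuticle, as match. It was at 11.9, 8.69 and 7.13 CPM in high-Hr4 brains and at 93.6, 88.6, 57.7, 65.1 and 99.5 CPM in mature brains, with 62.9 and 75.7 CPM in the other immature brains. Gene000147, a match to a vertebrate P450 2A, was at 49.3, 29.2 and 16 CPM against 145.1 to 248.9 CPM. Gene011087, matched to Cyp6a14, had a mean of 1.24 ± 1.23 CPM (SD, n = 3) against 7.32 ± 0.481 CPM (SD, n = 5).

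The share of counts taken by extracellular matrix genes was 0.664%, 1.83% and 1.54% in high-Hr4 brains, 0.625% and 0.563% in the other immature brains and 2.08% to 3.22% in mature brains, so that immature female 2 lay beside the low-Hr4 libraries. Of 45 genes 3 (6.67%, against 3.32% of all genes) were separated and higher in mature brains and 1 (2.22%, against 4.46%) in high-Hr4 brains, and the median log2 difference was 0.22. Without immature male 1 the count was 8 and 1, and without immature male 3 or mature male 3 it was 5 and 1. Gene009700 had Col4a1 as Drosophila match (identity 38.97%) but collagen alpha-3(IX) as Swiss-Prot match (44.21%), so the matches do not settle its collagen type. It was at 43.9, 74.7 and 56.8 CPM against 193.6, 247.8, 212.8, 171.8 and 168.6 CPM, and all 5 immature libraries lay below all 5 mature ones.

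Gene007772 matched Loxl2, an enzyme that crosslinks collagen, and was at 20.2, 98.8 and 51.3 CPM in high-Hr4 brains and at 349.9, 222.9, 191.4, 240.4 and 318.1 CPM in mature brains. Its adjusted p in the labelled comparison was 0.0695 with edgeR's quasi-likelihood test, just short of the threshold, with a log2 fold change of 2.87 ± 0.29 (SE). Gene018666 also had Col4a1 as Drosophila match (identity 38.41%), but its closer match in Swiss-Prot was collagen alpha-2(I) (49.08%). It was at 1516, 8737 and 6988 CPM against 9594 to 20650 CPM, and at only 540.2 and 740.3 CPM in the low-Hr4 immature libraries. At this gene the high-Hr4 males lay nearer to the mature brains than the other immature brains did. Of the 6 collagen-modifying enzymes, 1 (16.7%, against 4.46% of all genes) was separated and higher in high-Hr4 brains. It was the prolyl 4-hydroxylase match Gene001029, with a narrow gap of 0.04.

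Muscle genes were higher in mature brains in part. Of 46 sarcomere genes 7 (15.2%, against 3.32% of all genes) were separated and higher in mature brains and 0 in high-Hr4 brains, with a median log2 difference of 0.57. Without immature male 1 or without mature male 2 the count was 13, and among males alone the median was 0.06. Paramyosin (Gene000250), of the thick filament of invertebrate muscle, was at 192.1, 393.2 and 121.5 CPM against 3850, 2544, 3533, 1763 and 2650 CPM. The other immature brains had 2791 and 1855 CPM, within the mature range. Zasp52 (Gene007689), of the Z-disc, was at 336.8, 671.3 and 414.3 CPM against 1192 to 2555 CPM.

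SERCA, the calcium pump of the muscle and neuronal endoplasmic reticulum, was chosen after its values were seen. Gene005381 was at 1036, 2393 and 573.3 CPM in high-Hr4 brains and at 17000, 13420, 13900, 8690 and 11000 CPM in mature brains, with 10030 and 15400 CPM in the other immature brains. The log2 difference was 3.47. The whole muscle marker list differed less than these genes, by a median of 0.50 over 36 genes and of -0.03 among males alone. The muscle marker share overlapped between groups by a small margin, at 10.6% in immature male 1 and 10.5% in mature male 2.

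CRAL-TRIO proteins carry lipids and hold tocopherol, retinoids and other hydrophobic molecules. Of their 50 genes, 8 (16%, against 3.32% of all genes) were separated and higher in mature brains and 1 (2%, against 4.46%) in high-Hr4 brains. Gene014625, matched to an alpha-tocopherol transfer protein-like protein, was at 1.41, 1.78 and 1.17 CPM against 19.4, 14.8, 11.7, 12.6 and 12.8 CPM. The other immature brains had 9.62 and 13.03 CPM, close to the mature ones. Without immature female 2 the count was 15 and 3, and without mature female 2 it was 8 and 3.

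Of 44 genes of synaptic vesicle release 43 had a higher mean in mature brains, with a median log2 difference of 0.49, but 1 was separated (2.27%, against 3.32% of all genes). Without immature female 2, mature female 2 or mature female 3 there were 0, as among males alone, without immature male 3 or mature female 1 there were 4, and without immature male 1 or mature male 3 there were 3. The separated gene was cac (Gene007245), the presynaptic calcium channel, at 1.87, 2.37 and 4.44 CPM against 4.72 to 7.40 CPM, and the other immature libraries lay within the high-Hr4 range or below it. The median over the 35 neuron markers, of which 34 had the higher mean in mature brains, was 0.48 and among males alone 0.19.

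Voltage-gated channel genes had 8 of 64 (12.5%, against 3.32% of all genes) separated and higher in mature brains and 0 in high-Hr4 brains, with a median of 0.69. The sodium channel para (Gene014225) was at 4.21, 5.92 and 2.92 CPM against 10.5, 9.22, 7.58, 9.32 and 9.45 CPM. The potassium channel eag (Gene006808) was at 3.04, 3.16 and 4.21 CPM against 7.07 to 10.1 CPM. The count was 17 without immature male 1, where all genes higher in mature brains numbered 1512. It was 4 without immature female 2 and 5 without mature female 3, where all genes numbered 1217 and 1376. Among males alone it was 3, where all genes numbered 1948.

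Ligand-gated channel genes had 9 of 87 (10.3%, against 3.32% of all genes) separated and higher in mature brains and 3 (3.45%, against 4.46%) in high-Hr4 brains. The glutamate-gated chloride channel GluClalpha (Gene014060) was at 106.5, 72.5 and 78.5 CPM in high-Hr4 brains, against 158.0 to 325.6 CPM in mature brains. HisCl1 (Gene012357), a histamine-gated chloride channel that in flies serves photoreceptor synapses, had the opposite order, at 28.9, 30.6 and 26.2 CPM against 12.97, 9.84, 6.50, 5.69 and 7.48 CPM. The low-Hr4 immature libraries, at 7.11 and 12.9 CPM, lay with the mature ones for HisCl1. Without immature male 1 the count for the list was 16 and 2.

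Axon guidance and neural adhesion genes had 8 of 255 (3.14%) separated and higher in mature brains, near the 3.32% of all genes, and 0 in high-Hr4 brains. Without immature male 1 the count was 17 and 1, where all genes had 1512 and 1680. Without mature female 1 it was 13 and 0, where all genes had 938 and 1215. Dscam1 and Dscam2 matches, which give neurons their surface identity in flies, were among them, with log2 differences of 1.10 for Gene001172 and 1.03 for Gene011491. In the glia list 1 of 8 genes (12.5%, against 4.46% of all genes) was separated and higher in high-Hr4 brains. It was moody (Gene014184), a receptor of the fly blood-brain barrier, at 3.59, 1.78 and 1.75 CPM in high-Hr4 brains against 0.181 to 1.12 CPM.

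Eye and blood genes varied within groups. Opsins and arrestins had 0 of 8 separated in either direction, against 3.32% and 4.46% of all genes. Without immature male 3, 3 were higher in high-Hr4 brains. An opsin match (Gene004564, Rh6) was at 620.8, 204.2 and 87.4 CPM in high-Hr4 brains and at 56.5 to 165.7 CPM in mature brains. Haemocyanins, the oxygen carriers of spider blood, had 0 of 18 separated in either direction, against the same shares of all genes. Gene000605 ranged from 53.9 to 2175 CPM in high-Hr4 brains and from 25.8 to 2743 CPM in mature brains. The median of the haemocyanin list was -0.92 and 0.28 without immature female 2.

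**Figure D4:**
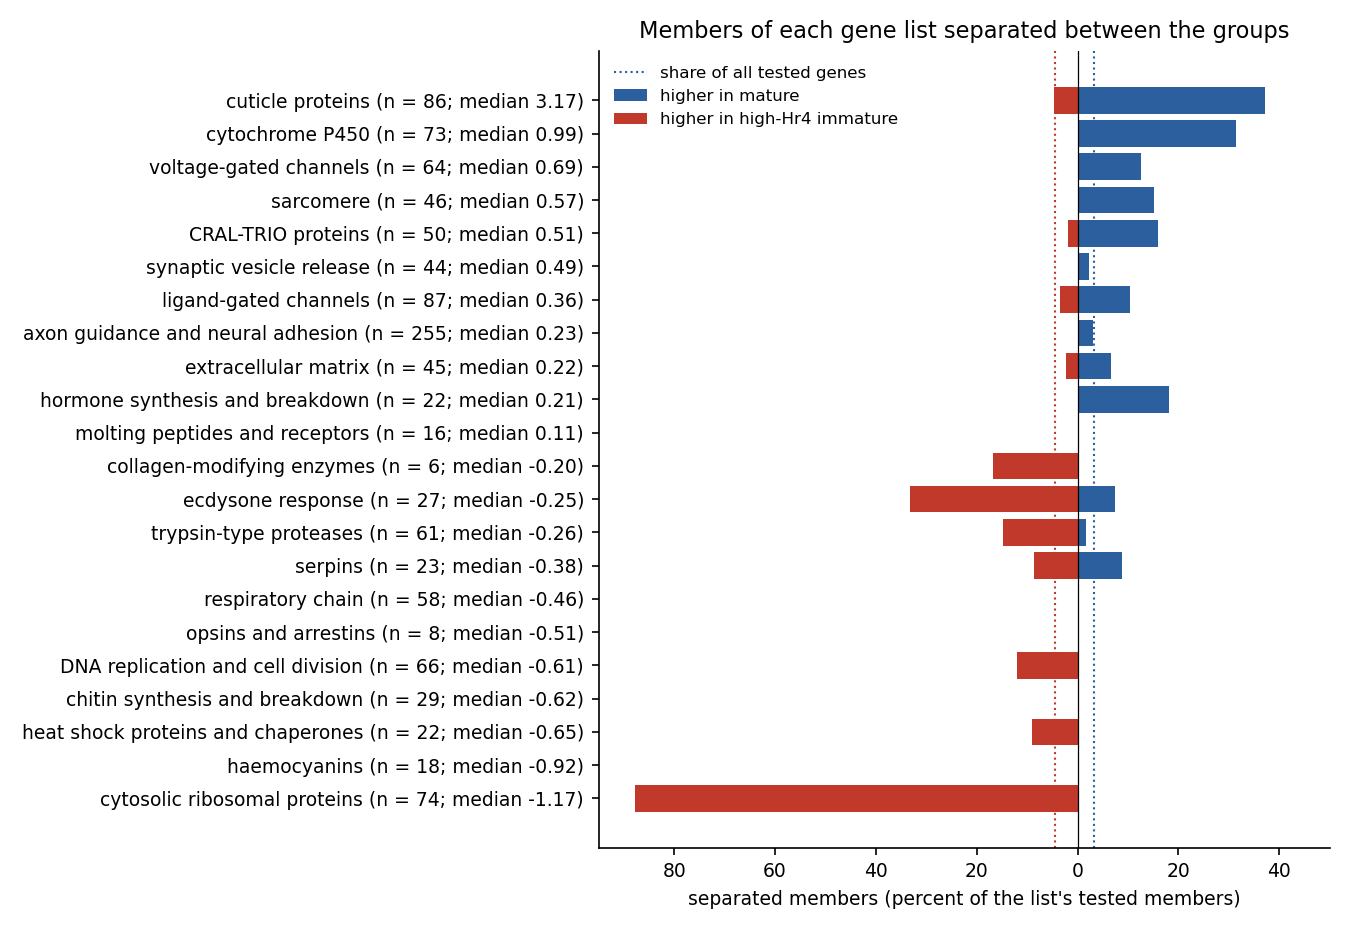
Percent of each gene list's tested members that were separated, higher in mature brains or higher in high-Hr4 brains, beside the 3.32% and 4.46% of all genes. The bars reach 87.8% for ribosomal proteins and 33.3% for the ecdysone response (both higher in high-Hr4 brains) and 37.2% for cuticle proteins and 31.5% for P450 genes (both higher in mature brains). The ecdysone response list holds the gene that chose the libraries.

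The low-Hr4 immature brains did not hold 1 place across these lists. Among genes higher in mature brains, both lay on the mature side for 43.7% over all genes. They did so for 22 of 23 P450 genes (95.7%), 5 of 7 sarcomere genes (71.4%) and 8 of 32 cuticle genes (25%). Of the 3 matrix genes, 0 had both there and 2 had both on the high-Hr4 side. Among genes higher in high-Hr4 brains, the share on the mature side was 46% over all genes. Ribosomal genes were near that share, with 27 of 65 (41.5%). For the ecdysone response it was 6 of 9, which include the choosing gene Gene001811 and Gene001813 on its contig.

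**Figure D5:**
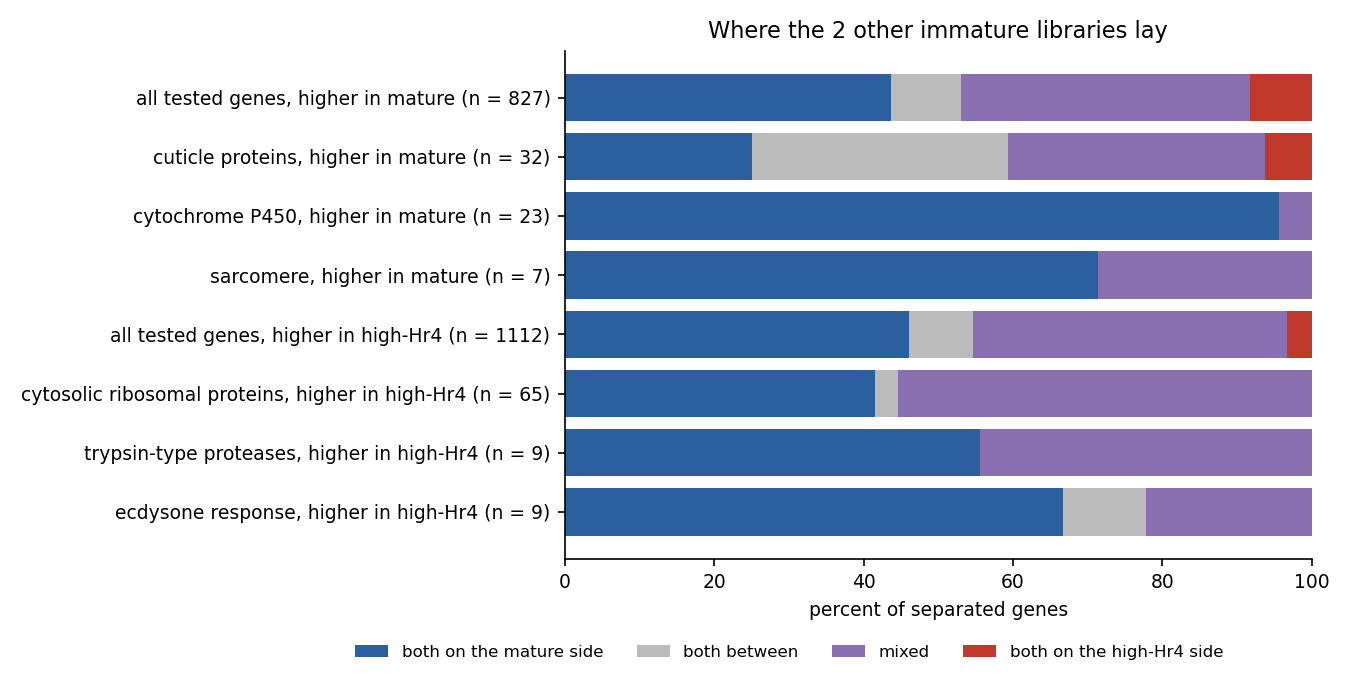
Position of immature female 3 and immature male 2 for the separated genes of each list, as a percent of those genes: both on the mature side, both on the high-Hr4 side, both between the groups, or mixed. P450 genes lie almost wholly on the mature side (95.7%), and over all genes the shares are 43.7% and 46%.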

How the data were processed

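The authors made a library from polyadenylated RNA of each brain, trimmed reads with Trimmomatic 0.32, assembled them de novo and aligned them to the assembly with BWA 0.6.1-r104, and deposited whole-number counts per predicted gene; the strand was not marked, so antisense transcripts could not be told apart, and genes on 1 contig may share reads. Matches to named proteins came from the deposited annotation; 11665 of 25943 genes have a named Drosophila match and 15795 a Swiss-Prot match. Of the 12 libraries made, the authors left out immature female 1 and mature male 1 for low coverage.

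Counts were filtered with edgeR 4.0.16 (R 4.3.3, filterByExpr, minimum count 10), leaving 24930 of 25922 genes, and scaled by TMM. The labelled comparison used the quasi-likelihood F test on 4 group means (stage by sex, 10 libraries), with the likelihood ratio test and DESeq2 1.42.0 as alternatives. The count tests were also run on simulated counts in which chosen genes were shifted in the mature libraries. Those counts held no split among the immature libraries, so they do not show how the tests behave with one. The members and gene lists were chosen with earlier results of these data known. Named genes were, per direction, the 10 separated genes with a named match, 1 per contig and at least 5 CPM, with the widest gap, all ecdysone response and hormone genes, and from each other list up to 4 separated genes with the widest gap or else the 2 with most counts. Totals ran from 3481348 to 11789754 counts. Libraries are separate spiders, so their spread is biological and technical together. Alternatives were other scaling, filters, prior counts, thinning, males only, 1 gene per contig and each library left out.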

Additional observations from a re-analysis of the deposited data

Results flagged for a closer look

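Of 79 sets of 5 mature libraries examined, 11 had 1 library far from the other 4 by Dixon's test, which flags about 1 set in 20 by chance (3.95 here). Mature female 2 had the lowest total, 3481348 counts, and the highest level of Hr38 (Gene001184, 75.9 CPM), of the Hr4 match Gene001472 (15.7 CPM) and of the protease Gene005449 (0.615 CPM). Gene005449 had 2 counts there, as in mature females 1 and 3 and mature male 2, so its higher CPM reflects the low total. Mature male 2 had the highest share of haemocyanins (0.390% of counts) and of blood cell markers (0.463%), and the highest level of the cuticle genes Gene007696 (153.8 CPM) and Gene007697 (90.9 CPM). Mature female 3 was highest for svp (Gene001256, 11.1 CPM) and the E78 match Gene009104 (113.4 CPM), and mature male 3 was lowest for Hr39 (Gene009352, 26.5 CPM).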

How the results depend on the processing

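Genes higher in mature and in high-Hr4 brains numbered 1948 and 1846 among males alone and 273 and 286 at a log2 difference of at least 2. Leaving out 1 library gave 912 to 1512 and 1167 to 1680. Among males alone the list medians were -0.53 (ecdysone), 0.06 (sarcomere), 0.17 (synaptic), 0.46 (voltage-gated), -0.0252 (muscle) and 0.19 (neuron). The photoreceptor median was -0.98 with a prior count of 0.5 and the nuclear receptor median -0.0236 with thinned counts. Leaving out 1 library gave medians of -1.03 to 0.0879 for opsins and -1.22 to -0.0104 for photoreceptor genes. CPM without TMM scaling, chosen after seeing the data, gave 685 and 1351 genes.

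The labelled comparison called 0 genes, against 645 with the likelihood ratio test, 742 with DESeq2, 2 with thinned counts and 0 to 292 with 1 library left out. With the replicate number as a block it called 31. Deviations of same-numbered libraries from their group means had correlations from -0.361 to 0.302. In a group of 2 libraries these deviations mirror each other, so whether the numbers pair spiders cannot be told. The causes were not tested. For named genes, 2373 of the log2 differences recomputed moved by less than the spread and 55 by more. Depth limits genes below about 1 CPM, which is few counts in mature female 2.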

Other observations

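Further groups were taken from the protein domains after their values were seen and carry no test. Of 90 genes with a major facilitator domain (MFS_1), which carry small molecules across membranes, 15 (16.7%, against 3.32% of all genes) were separated and higher in mature brains and 2 (2.22%, against 4.46%) in high-Hr4 brains, with a median log2 difference of 0.44. The glucose transporter Glut1 (Gene003101) was at 96.2, 93.6 and 86.5 CPM in high-Hr4 brains and at 205.8, 141.1, 251.7, 199.7 and 150.9 CPM in mature brains. The organic anion transporter Oatp74D (Gene007513), an ecdysone importer in flies, was at 22.1, 17.8 and 13.5 CPM against 35.0, 38.7, 52.5, 45.7 and 45.8 CPM, and at 32.5 and 33.1 CPM in the other immature brains.

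Of 43 cadherin-domain genes, which join cells, 8 (18.6%, against 4.46% of all genes) were separated and higher in high-Hr4 brains and 0 (against 3.32%) in mature brains. Of 144 genes with an RNA recognition motif (RRM_1), 19 (13.2%, against 4.46%) were separated and higher in high-Hr4 brains and 0 (against 3.32%) in mature brains. Of 22 genes with an animal peroxidase domain (An_peroxidase), 5 (22.7%, against 4.46%) were separated and higher in high-Hr4 brains. The other direction held 2 (9.09%, against 3.32%), among them peroxidasin-like cysu (Gene013801), chosen after its values were seen. It was at 0.936, 0.790 and 0.935 CPM in high-Hr4 brains and at 14.8 to 49.7 CPM in mature brains, with 23.6 and 25.1 CPM in the other immature brains.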
